A study of Homo sapiens with 39 samples.

Results

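Amino acid and sugar transporters of 9 solute carrier families were followed across HCT116 cells, a human colorectal cancer line, that produced 1 of 12 isoforms of hepatocyte nuclear factor 4 alpha (HNF4A). The members were all genes named SLC1A, SLC2A, SLC3A, SLC5A, SLC6A, SLC7A, SLC36A, SLC38A or SLC43A plus a number, and 85 of the 45435 rows carried such a name in all tables. The rule itself uses gene names only. Of the 85 members, 44 had a mean of at least 1 TPM (transcript abundance scaled to 1 fixed sum per library) over the 39 libraries and were tested among 15003 genes, and 41 were under it.

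Cells take up amino acids and sugars through solute carriers. SLC2 proteins let hexoses pass down their gradient and most SLC5 proteins use the sodium gradient. SLC1, SLC6 and SLC38 carriers move amino acids, amines or related solutes with sodium. SLC7 light chains exchange amino acids, most of them bound to an SLC3 heavy chain, and SLC36 and SLC43 proteins carry small or large neutral amino acids, among other substrates. HNF4A is a nuclear receptor that binds DNA as a dimer and is known for driving genes of metabolism in liver, kidney and gut. Its isoforms come from separate promoters and from splicing at both ends of the transcript.

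Each of the 13 groups had 3 libraries. The parental group was the HCT116 Flp-In T-REx host line without a construct. Every isoform group was a stable line of its own with a single insertion of 1 HNF4A isoform, fused at its C-terminus to GFP and switched on by doxycycline. All cells, the parental ones included, received 2.5 µg/ml doxycycline for 48 h in DMEM with 10% FBS, penicillin and streptomycin. Selection antibiotics were taken away at induction. Before, blasticidin was in all cultures, together with zeocin for the parental cells and with hygromycin B for the 12 lines. No group produced GFP alone, and each isoform is represented by 1 line, so effects of the isoform, of GFP, of the earlier antibiotic and of deriving a line cannot be told apart. The labels do not say whether the 3 libraries of a group came from separate cultures, so p-values measure the spread between these libraries, which may be technical.

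HNF4A itself, which checks the labels, had a parental level of 31.5 TPM ± 0.589 (SD, n = 3) and means between 613.5 TPM (isoform 2) and 1071.0 TPM (isoform 6) in the lines. Replicate 1 of the isoform 3 line stood apart with 406.9 TPM of HNF4A, against 833.5 TPM and 771.8 TPM in replicates 2 and 3. Each library had a TPM sum between 999972.6 and 999987.7, and its read depth is unknown. Of 9 epithelial markers 8 were over 1 TPM, with CDX1 under 0.1 TPM, and their sum was between 2634.5 and 5859.3 TPM per library. That sum was highest in isoform 1 (5348.2 to 5859.3 TPM, against 3222.8 to 3350.7 TPM in the parental libraries). There 7 of the 8 tested epithelial markers were higher and 1 lower by adjusted p alone (19.8% and 38.7% of all tested genes). Isoform 7 followed with 4717.9 to 4892.5 TPM, 6 markers higher and 1 lower (13.4% and 26.2% of all tested genes). Isoform 6 went the other way with 2634.5 to 2933.0 TPM, 0 markers higher and 5 lower (5.94% and 4.13%). Of 10 markers of other cell types 4 were over 1 TPM (ACTA2, COL1A1, HBA1 and PECAM1), while CD3E, DCN and PTPRC were under 0.1 TPM, and their sum was between 27.0 and 42.6 TPM. PECAM1, an endothelial marker, was called higher in isoform 1 with a log2 fold change of 1.02. The part of these markers in the results below was not tested. In these bulk libraries a larger share of cells making an RNA and more RNA per cell cannot be told apart.

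Promoter sequences bear on which members could share a binding site, so those of 3 members that rose together in the isoform 1 line, SLC1A7, SLC7A7 and SLC2A1, are shown with that of SLC3A2, a member with a match to an amino acid response motif. They come from RefSeq (GRCh38.p14) and cover 250 bases before to 50 bases after a transcription start, 5′ to 3′ on the gene's strand. Capitals mark a match to TGATGNAA, the type of site bound by ATF4, the transcription factor of the amino acid response. For SLC7A7 the most upstream of 3 listed starts is shown, and for SLC3A2 the one of 3 that holds the match.
SLC1A7, chr1:53142589-53142888, minus strand: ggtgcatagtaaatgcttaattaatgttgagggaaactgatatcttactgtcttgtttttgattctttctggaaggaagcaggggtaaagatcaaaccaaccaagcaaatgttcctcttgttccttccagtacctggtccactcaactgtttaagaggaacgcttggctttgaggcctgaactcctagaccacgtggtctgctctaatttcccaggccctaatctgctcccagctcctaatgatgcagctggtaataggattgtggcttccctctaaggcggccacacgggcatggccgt
SLC7A7, chr14:22819742-22820041, minus strand: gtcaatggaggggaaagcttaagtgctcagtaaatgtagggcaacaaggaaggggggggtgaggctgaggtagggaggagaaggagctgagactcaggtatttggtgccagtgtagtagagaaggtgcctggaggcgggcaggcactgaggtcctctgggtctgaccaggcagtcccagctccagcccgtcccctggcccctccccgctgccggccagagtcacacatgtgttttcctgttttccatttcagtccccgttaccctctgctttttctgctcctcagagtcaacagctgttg
SLC2A1, chr1:42958819-42959118, minus strand: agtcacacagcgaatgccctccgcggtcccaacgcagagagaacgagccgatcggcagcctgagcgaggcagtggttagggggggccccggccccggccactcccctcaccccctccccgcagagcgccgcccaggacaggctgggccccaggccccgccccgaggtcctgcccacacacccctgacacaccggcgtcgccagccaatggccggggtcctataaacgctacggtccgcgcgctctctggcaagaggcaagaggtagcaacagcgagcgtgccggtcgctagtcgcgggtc
SLC3A2, chr11:62881449-62881748, plus strand: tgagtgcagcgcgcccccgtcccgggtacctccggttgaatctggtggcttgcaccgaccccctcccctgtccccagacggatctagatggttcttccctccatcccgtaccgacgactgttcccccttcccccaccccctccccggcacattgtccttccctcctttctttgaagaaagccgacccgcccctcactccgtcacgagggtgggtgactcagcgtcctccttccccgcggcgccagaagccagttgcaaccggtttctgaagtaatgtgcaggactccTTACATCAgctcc

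Among the members, 65 of 85 were found in the RefSeq promoter table, with 91 promoters of 300 bases in all. HNF4A-type sites were searched as CAAAGTCCA and as CAAAGGTCA on both strands, with no mismatch allowed. Neither was in any of the 91 member promoters, while CAAAGTCCA was in 0.384% and CAAAGGTCA in 0.407% of all 35116 promoters of the same length, so these letters are rare in such windows in any case. TGATGNAA was in 7 of the 91 member promoters (7.69%) and in 3.62% of all promoters. The 7 belonged to SLC1A3, SLC1A4, SLC1A5, SLC2A5, SLC38A1, SLC3A2 and SLC7A1. In the SLC3A2 sequence above the match begins at base 288 and reads on the other strand. A match describes letters in this window and no match says nothing of binding elsewhere.

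The first question was which transporters these cells make. Amino acid carriers led. SLC38A2, a sodium-coupled carrier of small neutral amino acids, had the highest mean over the 39 libraries with 330.8 TPM. It was followed by the large neutral amino acid exchanger SLC7A5 (206.9 TPM), its heavy chain SLC3A2, also called CD98 (169.1 TPM), the glutamine exchanger SLC1A5 (129.0 TPM) and the glutamine carrier SLC38A1 (113.3 TPM). These 5 made up 59.2% ± 0.579 (SD, n = 3) of the summed TPM of all members in the parental cells. Another 16 members were between 10 and 100 TPM and 23 between 1 and 10 TPM. The highest member of the sugar families was SLC2A1, the glucose carrier of most cell types, with 47.9 TPM. The leading members of the other families were SLC6A8, which carries creatine (63.3 TPM), SLC5A6, which carries biotin and pantothenate (42.0 TPM), SLC36A4 (30.9 TPM) and SLC43A3, a nucleobase carrier (26.9 TPM).

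Of the members under 1 TPM, 29 were under 0.1 TPM and 12 between 0.1 and 1 TPM. SLC5A11 was nearest above the limit with a mean of 1.04 TPM and SLC7A9 nearest below it with 0.765 TPM. SLC5A7, a choline carrier, and SLC7A13 were listed at 0 in all 39 libraries. The low group held the glutamate carriers SLC1A2 and SLC1A6, the hexose carriers SLC2A2, SLC2A5, SLC2A7, SLC2A10 and SLC2A14, and the sodium-glucose carrier of the intestine, SLC5A1, with SLC5A4, SLC5A8, SLC5A9, SLC5A10 and SLC5A12. It held most SLC6 members, among them SLC6A2, SLC6A3, SLC6A4, SLC6A5, SLC6A7, SLC6A11, SLC6A12, SLC6A13, SLC6A14, SLC6A15, SLC6A18, SLC6A19 and SLC6A20. SLC3A1 and SLC7A9, the heavy and light chain of the cystine carrier of kidney and gut, were there too. The remaining low members were SLC7A3, SLC7A4, SLC7A10, SLC7A14, SLC36A2, SLC36A3, SLC38A4, SLC38A5, SLC38A8 and SLC38A11.

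Each line was then compared with the parental cells to ask which transporters changed with each isoform. A gene was called when limma's test gave a Benjamini-Hochberg adjusted p under 0.05 and its log2 fold change was at least 1 in size on the log2(TPM + 1) scale, which understates the change of low genes. All 12 comparisons share the same 3 parental libraries. Of the 528 pairs of a tested member and a line, 15 were called, 13 higher and 2 lower, and they came from 7 members. The other 37 tested members were called in no line, and the largest change among them was -0.99. With a pseudocount of 0.1 in place of 1, all 15 calls were kept and 30 pairs from 10 members were called, 23 higher and 7 lower. The 3 added members were SLC43A3, SLC5A2 and SLC6A16, all lower. The share of all tested genes called with 0.1 is not reported here, so the larger count cannot be set against it.

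The calls were uneven among the lines. Isoform 1 had 6 members called, all higher (4.52% of all tested genes were called in that line), and isoform 2 had 3 higher and 1 lower (3.73% of all tested genes). Isoform 7 had 1 higher and 1 lower (2.08% of all tested genes). One member each, SLC1A7, was called higher for isoform 3 (0.807% of all tested genes), isoform 10 (1.44%) and isoform 11 (1.7%). No member was called for isoform 4 (0.54% of all tested genes), isoform 5 (0.293%), isoform 6 (0.247%), isoform 8 (1.41%), isoform 9 (0.827%) or isoform 12 (0.573%). At an unadjusted limma p under 0.05 and with no minimum fold these 6 lines had 10, 13, 9, 17, 11 and 11 of the 44 members, beside 29.3%, 26.9%, 23.1%, 43.1%, 33.6% and 27.8% of all tested genes. The 44 tested members had a median log2 fold change of -0.114 in isoform 1 and -0.172 in isoform 2, where all tested genes had -0.107 and -0.09. Of the 44, 3 members (SLC1A7, SLC7A7 and SLC5A11) had a parental mean under 1 TPM and passed the limit only through lines in which they were higher.

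**Figure D1:**
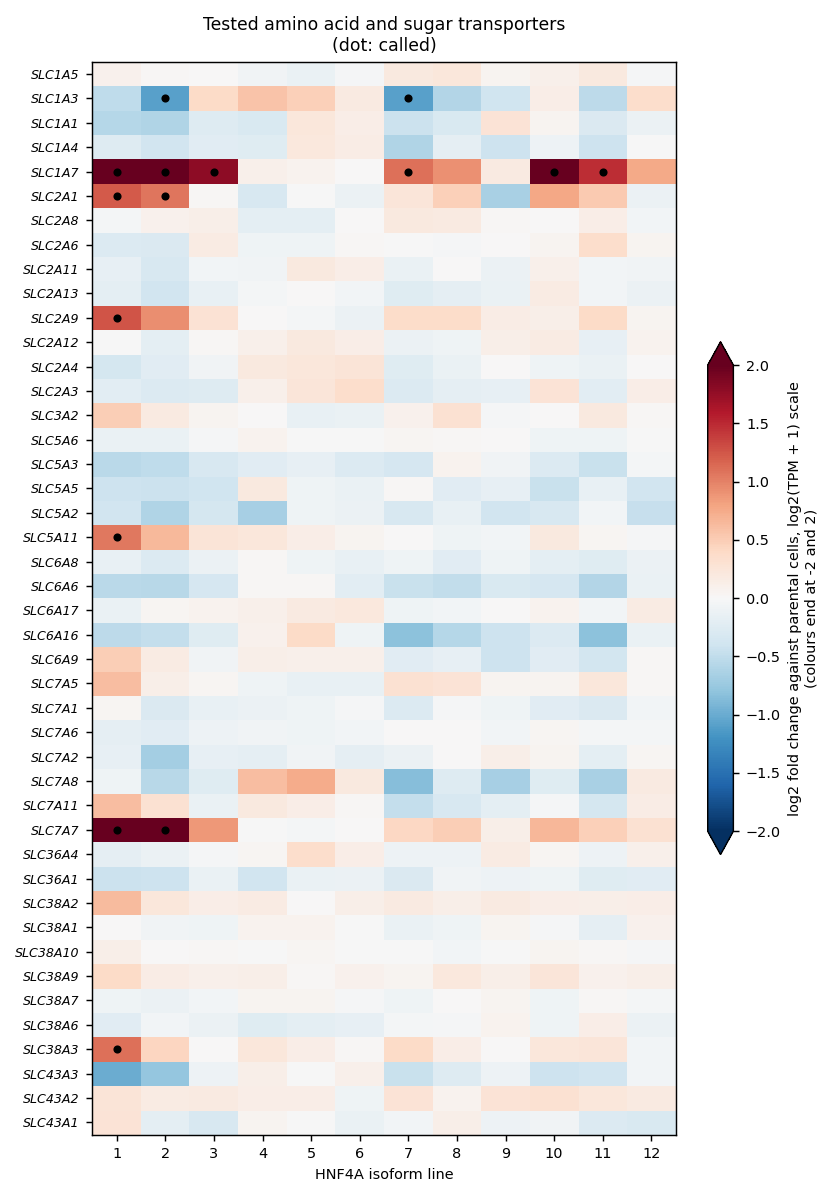
Log2 fold change against the parental cells for the 44 tested members (rows, by family) in the 12 isoform lines (columns), on the log2(TPM + 1) scale, with a black dot at each of the 15 calls. The rows of SLC1A7, SLC7A7 and SLC2A1 are red in the columns of isoforms 1 and 2, the columns of isoforms 4, 5 and 6 hold no dot, and the row of SLC1A3 is blue in some lines and red in others.

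Glutamate carriers gave both the largest rise and the largest fall. SLC1A7, a glutamate carrier with a large chloride conductance that is known from the retina, lies on chromosome 1 from 53087179 to 53142632 on the minus strand (GRCh38). The parental libraries had 0.0125, 0.0292 and 0 TPM of SLC1A7, so it was near 0. The isoform 1 libraries had 11.4, 9.47 and 9.27 TPM and those of isoform 2 had 9.2, 8.85 and 8.14 TPM. Isoform 10 followed with 3.74, 3.24 and 3.11 TPM, and isoform 3 with 1.6, 3.12 and 3.01 TPM. SLC1A7 was at 1.9, 1.75 and 1.75 TPM in isoform 11 and at 1.49, 1.09 and 0.958 TPM in isoform 7. All libraries of these 6 lines were above all parental libraries.

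The log2 fold change of SLC1A7 was 3.44 ± 0.12 (SE) in isoform 1 (adjusted p = 1.83e-20) and 3.26 in isoform 2, with the same SE. It was 2.10 in isoform 10 (adjusted p = 8.29e-15), 1.79 in isoform 3, 1.47 in isoform 11 and 1.10 in isoform 7 (adjusted p = 7.05e-09), all called. Without replicate 1 of isoform 3, the library low in HNF4A, the SLC1A7 value of that line was 2.00. Without replicate 1 of isoform 7 the value of that line was 1.00 and fell short of a call. In isoform 8 (0.886, 0.817 and 1.04 TPM) and isoform 12 (0.822, 0.816 and 0.543 TPM) SLC1A7 passed the adjusted p with log2 fold changes of 0.92 and 0.76, under the fold needed for a call. With a pseudocount of 0.1 SLC1A7 was also called in isoforms 8, 9 and 12 (3.16, 1.12 and 2.85), 9 lines in all. The line means of isoforms 4, 5, 6 and 9 were 0.0846, 0.0626, 0.0137 and 0.152 TPM, and only those of isoforms 5 and 6 had libraries that overlapped the parental ones.

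SLC1A3, a glutamate carrier known from glia, was abundant and moved both ways. It lies on chromosome 5 from 36606355 to 36688334 on the plus strand. The parental libraries had 46.6, 43.4 and 42.9 TPM of SLC1A3. The isoform 2 libraries had 21.1, 19.8 and 20.0 TPM and those of isoform 7 had 19.8, 20.8 and 20.2 TPM, well below all parental libraries. The log2 fold change of SLC1A3 was -1.09 ± 0.09 (SE) in both lines (adjusted p = 1.47e-11 and 3.4e-11), and these were the only calls downward. In isoform 4 the libraries had 60.8, 64.5 and 74.2 TPM, above all parental libraries, with a log2 fold change of 0.57 that was not called. By adjusted p alone SLC1A3 was lower in 6 lines (isoforms 1, 2, 7, 8, 9 and 11) and higher in 4 (isoforms 3, 4, 5 and 12).

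Among the other SLC1 members, the glutamine exchanger SLC1A5 varied little, with line means between 113.7 TPM (isoform 5) and 144.8 TPM (isoform 8) and log2 fold changes from -0.13 to 0.22. SLC1A1, the glutamate carrier of kidney and gut, ranged from 5.54 TPM (isoform 2) to 11.0 TPM (isoform 9) against 8.9 TPM in the parental cells. It was lower by adjusted p alone in 7 lines, with the largest fall of -0.60 in isoform 2, and higher in 1, isoform 9 (0.27 ± 0.09, SE). SLC1A4, a serine and alanine exchanger, ranged from 1.68 to 3.68 TPM and was lower by adjusted p alone in 4 lines.

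Of the SLC2 family, the glucose carrier SLC2A1 rose in the isoform 1 and 2 lines and SLC2A9 in the isoform 1 line. SLC2A1 lies on chromosome 1 from 42925375 to 42959176 on the minus strand. The parental libraries had 40.5, 35.5 and 36.6 TPM of SLC2A1, the isoform 1 libraries 97.8, 85.0 and 84.8 TPM and the isoform 2 libraries 90.4, 78.6 and 72.0 TPM. The log2 fold change of SLC2A1 was 1.23 ± 0.08 (SE) in isoform 1 (adjusted p = 2.23e-13) and 1.07 in isoform 2 (adjusted p = 5.5e-12), both called. Without replicate 1 of isoform 2 the second value was 0.99 and fell short of a call. The isoform 10 libraries, at 71.1, 64.4 and 60.6 TPM, were also above all parental libraries, with a log2 fold change of 0.78 that was not called. Isoform 9 went the other way: its libraries had 24.8, 23.1 and 22.8 TPM of SLC2A1, below all parental ones, with a log2 fold change of -0.65 (adjusted p = 8.28e-07), not called. SLC2A1-AS1, an RNA from the opposite strand, overlaps the gene and was at 0.653 TPM in the parental cells and 1.06 TPM in isoform 1.

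The summed TPM of the SLC2 members was 102.2 ± 1.74 (SD, n = 3) in the parental cells, 153.0 ± 6.61 in isoform 1 and 87.9 ± 1.69 in isoform 9. Without SLC2A1 it was 64.7 ± 0.965, 63.7 ± 1.18 and 64.3 ± 2.42 TPM (SD, n = 3), so the differences in the sum were those of SLC2A1. The share of SLC2A1 in that sum was 36.7% ± 1.95 in the parental cells, 58.3% ± 2.32 in isoform 1 and 26.8% ± 1.54 in isoform 9 (SD, n = 3).

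SLC2A9, which carries urate and hexoses, had parental libraries at 2.22, 2.23 and 2.33 TPM and line means from 2.02 TPM (isoform 6) to 6.82 TPM (isoform 1). Its log2 fold change was 1.26 ± 0.09 (SE) in isoform 1 (adjusted p = 2.69e-13), called, and 0.93 in isoform 2, not called (1.17 and called with a pseudocount of 0.1). The other tested hexose and polyol carriers stayed within narrow ranges of group means: SLC2A8 from 18.3 to 24.4 TPM, SLC2A6 from 15.5 to 24.7 TPM, SLC2A11 from 6.9 to 10.2 TPM and SLC2A13, a myo-inositol carrier, from 5.33 to 8.25 TPM. SLC2A12 ranged from 2.39 to 3.48 TPM, the insulin-regulated SLC2A4 from 1.11 to 2.2 TPM and the neuronal SLC2A3 from 0.756 to 1.74 TPM. SLC2A14, a near-identical copy of SLC2A3 whose reads the counting could have split between them, went from 0.0251 TPM in parental cells to 1.56 TPM ± 0.275 with isoform 1 (SD, n = 3). Its mean over all libraries was 0.32 TPM, so it was not tested. With no limit on low values its log2 fold change in isoform 1 was 1.32 ± 0.08 (SE), a call.

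In the SLC5 family 1 member was called, and 2 with a pseudocount of 0.1. SLC5A11, a sodium-coupled carrier of myo-inositol, had parental libraries at 0.748, 0.674 and 0.788 TPM and isoform 1 libraries at 2.74, 2.28 and 2.78 TPM. Its log2 fold change in isoform 1 was 1.05 ± 0.09 (SE, adjusted p = 4.95e-11). Group means of SLC5A11 ranged from 0.631 TPM (isoform 8) to 2.6 TPM (isoform 1). SLC5A2, the sodium-glucose carrier of the kidney, was low throughout, from 0.753 TPM (isoform 4) to 1.79 TPM (parental), and was lower by adjusted p alone in 8 lines. With a pseudocount of 0.1 SLC5A2 was called lower in isoforms 2 and 4 (-1.01 and -1.14) and SLC5A11 higher in isoform 2 as well (1.13). SLC5A6 ranged from 38.7 to 45.1 TPM, the myo-inositol carrier SLC5A3 from 8.46 to 13.4 TPM and the iodide carrier SLC5A5 from 7.28 to 11.8 TPM. By adjusted p alone, SLC5A3 was lower in 4 lines and SLC5A5 in 5 lines, and neither was higher in any.

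**Figure D2:**
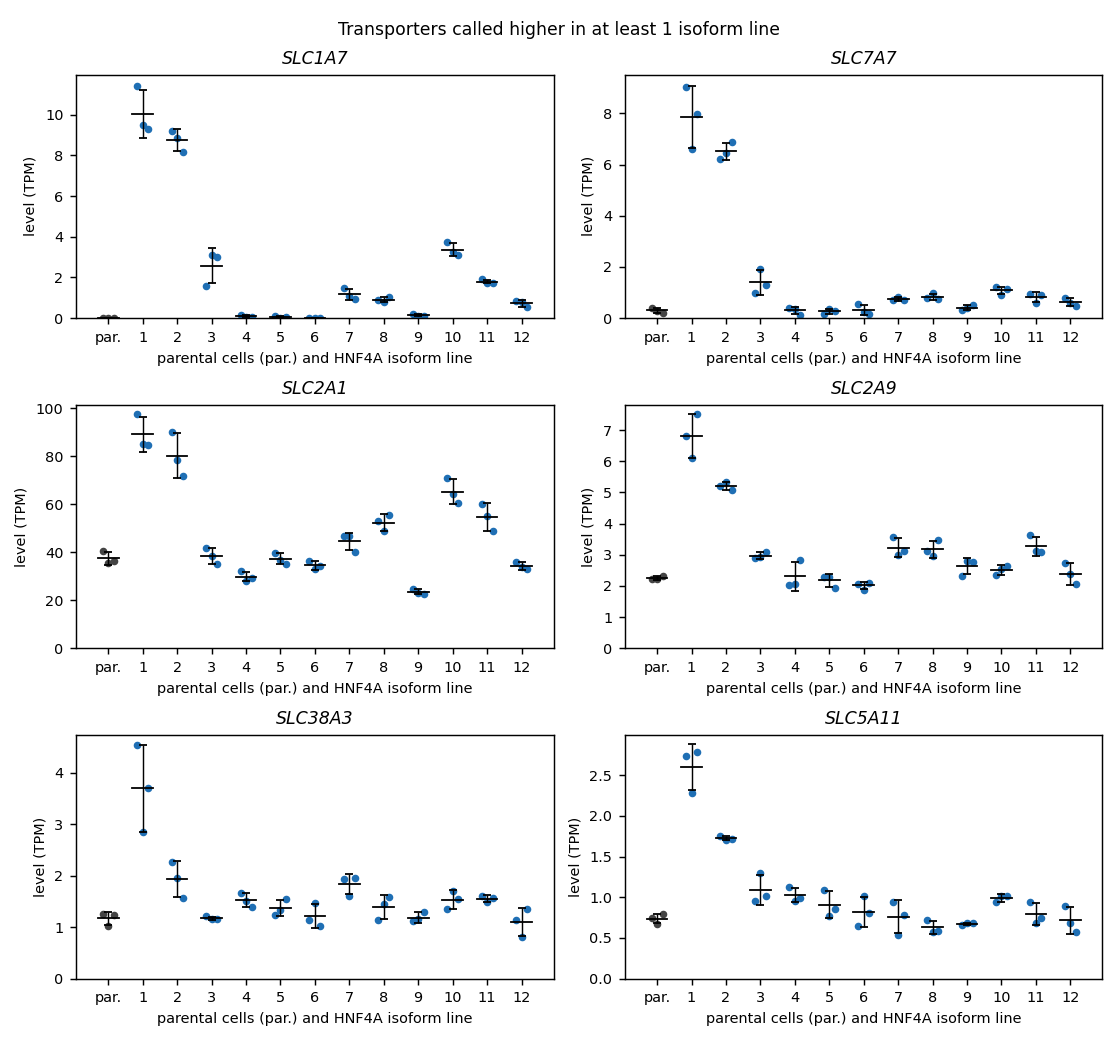
Level in TPM of the 6 members called higher in at least 1 line, by library (points), with the group mean (bar) and SD (whiskers), for the parental cells and the 12 isoform lines. SLC1A7 goes from at most 0.0292 TPM in the parental libraries to between 9.27 and 11.4 TPM in isoform 1, and SLC2A1 from at most 40.5 TPM to between 84.8 and 97.8 TPM.

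In the SLC7 family SLC7A7 was called in 2 lines. SLC7A7, which exports cationic amino acids such as arginine and lysine from gut and kidney cells when bound to SLC3A2, lies on chromosome 14 from 22773222 to 22829820 on the minus strand. The parental libraries had 0.415, 0.295 and 0.203 TPM of SLC7A7, the isoform 1 libraries 9.02, 6.61 and 7.97 TPM and the isoform 2 libraries 6.23, 6.47 and 6.88 TPM. In the isoform 3 line they had 0.965, 1.92 and 1.31 TPM. The log2 fold change of SLC7A7 was 2.76 ± 0.13 (SE) in isoform 1 (adjusted p = 1.97e-17) and 2.53 in isoform 2 (adjusted p = 1.82e-16), both called. It was 0.86 in isoform 3 and 0.67 in isoform 10, which passed the adjusted p but not the fold. The number of lines depended on the pseudocount: with 0.1 SLC7A7 was called in 7 lines, the added ones being isoforms 3 (1.88), 7 (1.10), 8 (1.23), 10 (1.57) and 11 (1.19).

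The heavy chain SLC3A2 and its most abundant partner SLC7A5 had smaller differences, and neither was called. SLC7A5 went from 190.5 TPM ± 8.2 in parental cells to 295.1 TPM ± 39.9 with isoform 1 (SD, n = 3), or by 0.62 ± 0.07 on the log2 scale (SE, adjusted p = 2.27e-08). SLC3A2 went from 158.4 TPM ± 3.19 to 223.0 TPM ± 17.9 (SD, n = 3), or by 0.49 ± 0.06 (SE, adjusted p = 5.38e-08). All 3 isoform 1 libraries were above all parental ones for both genes. The ratio of SLC7A5 to SLC3A2 was 1.2 ± 0.029 in the parental cells, 1.32 ± 0.0776 in isoform 1 and 1.4 ± 0.019 in isoform 7 (SD, n = 3). SLC7A5 has pseudogene copies that could take some of its reads, SLC7A5P1 with a mean of 0.382 TPM and SLC7A5P2 with 1.51 TPM.

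SLC7A8, another large neutral amino acid exchanger, was higher in some lines and lower in others. The parental libraries had 9.22, 9.17 and 8.77 TPM of SLC7A8. The isoform 4 libraries had 14.9, 14.2 and 13.8 TPM and those of isoform 5 had 16.9, 15.6 and 15.0 TPM. In isoform 7 they had 4.94, 4.3 and 4.5 TPM. The log2 fold changes were 0.61, 0.74 and -0.85 with an SE of 0.07, and none was called. By adjusted p alone SLC7A8 was higher in 2 lines and lower in 7.

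SLC7A11, which imports cystine in exchange for glutamate, was at 3.89 TPM in the parental cells and ranged from 2.51 TPM (isoform 7) to 6.61 TPM (isoform 1). Its largest log2 fold change was 0.61 ± 0.13 (SE) in isoform 1 (adjusted p = 0.000123). The cationic amino acid carriers SLC7A1 (25.6 to 32.6 TPM) and SLC7A2 (16.2 to 28.6 TPM) and the exchanger SLC7A6 (24.6 to 30.0 TPM) were higher by adjusted p in no line. SLC7A1 was lower by adjusted p alone in 4 lines, also after rescaling by median-of-ratios size factors, and SLC7A6 in 2, or 1 after rescaling. SLC7A2 was lower in isoform 2, with -0.68 ± 0.09 (SE) on the log2 scale.

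In the SLC6 family no member was called. SLC6A6, which carries taurine, was lower by adjusted p alone in 8 lines and higher in none, with group means from 11.4 TPM (isoform 11) to 18.0 TPM (isoform 5) against 17.6 TPM in the parental cells. SLC6A8 was likewise lower in 8 lines and higher in none, but by at most 0.27 on the log2 scale, and in 5 lines after the TPM were rescaled by median-of-ratios size factors. A copy of it, SLC6A10P, was at 1.48 TPM. SLC6A16, whose substrate is not known, ranged from 2.28 TPM (isoform 7) to 6.58 TPM (isoform 5), and with a pseudocount of 0.1 it was called lower in isoforms 7 and 11 (-1.05 and -1.04). SLC6A9, a glycine carrier, ranged from 1.8 to 4.27 TPM and SLC6A17, a vesicle carrier of neutral amino acids, from 8.88 to 11.6 TPM.

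**Figure D3:**
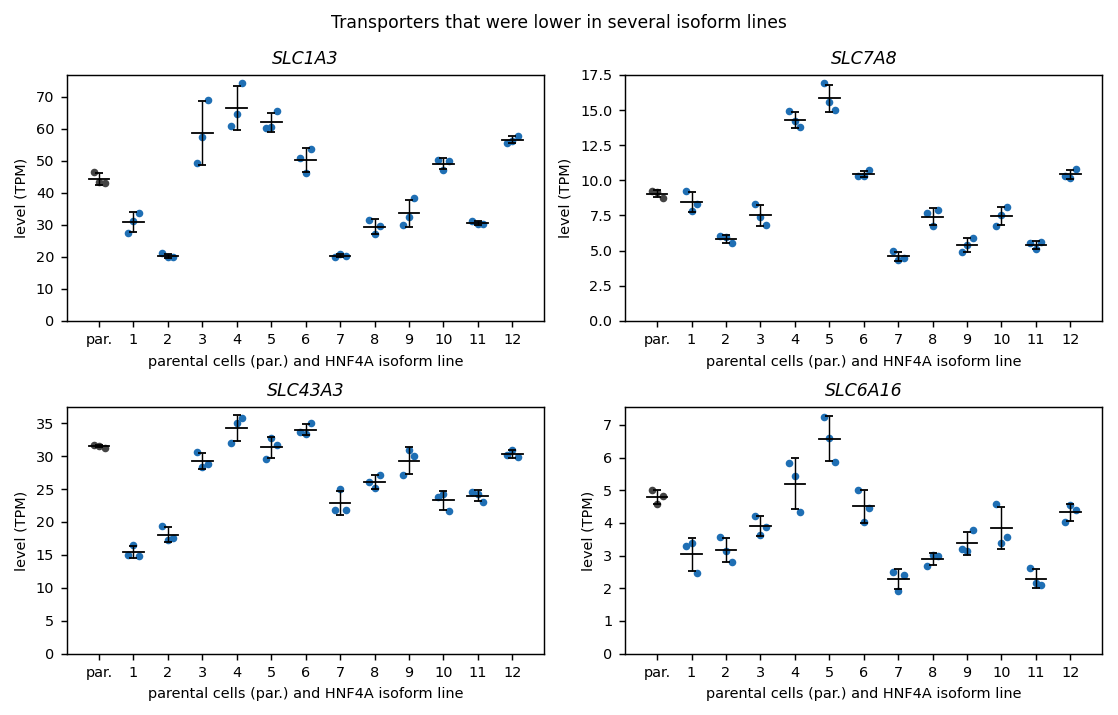
Level in TPM of SLC1A3, SLC7A8, SLC43A3 and SLC6A16 by library (points), with the group mean (bar) and SD (whiskers), for the parental cells and the 12 isoform lines. SLC1A3 is at 20.3 TPM in isoforms 2 and 7 and at 66.5 TPM in isoform 4, and SLC43A3 is lowest in isoform 1 with 15.4 TPM.

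Among the sodium-coupled neutral amino acid carriers of the SLC38 family, SLC38A3, a glutamine carrier of liver and kidney, was called in isoform 1. Its parental libraries had 1.25, 1.02 and 1.24 TPM and those of isoform 1 had 4.55, 2.85 and 3.71 TPM, a log2 fold change of 1.10 ± 0.11 (SE, adjusted p = 7.83e-10). Without replicate 1 of isoform 1 the value was 0.98 and fell short of a call. The group means of SLC38A3 ranged from 1.1 TPM (isoform 12) to 3.7 TPM (isoform 1).

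SLC38A2, the most abundant member, had parental libraries at 281.1, 301.4 and 295.7 TPM, and those of isoform 1 were at 409.1, 418.9 and 545.9 TPM, all above. Its log2 fold change there was 0.63 ± 0.11 (SE, adjusted p = 1.58e-05), not called, and in no other line did it pass the adjusted p, against 3 lines in all after rescaling by median-of-ratios size factors. SLC38A1 passed the adjusted p in no line, with group means from 102.0 to 123.8 TPM. SLC38A9, a lysosomal carrier that senses arginine, went from 13.9 TPM in parental cells to 18.4 TPM with isoform 1, or by 0.38 ± 0.07 on the log2 scale (SE). SLC38A10 ranged from 63.6 to 72.7 TPM, SLC38A7 from 7.59 to 8.68 TPM and SLC38A6 from 3.72 to 5.14 TPM.

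In the remaining 2 families no member was called at a pseudocount of 1. SLC43A3 came closest and is given by library for that reason, after its values were seen: the parental libraries had 31.7, 31.6 and 31.3 TPM and those of isoform 1 had 14.9, 16.5 and 14.8 TPM. Its log2 fold change was -0.99 ± 0.06 (SE, adjusted p = 4.83e-15) in isoform 1, and with a pseudocount of 0.1 it was -1.03 ± 0.06 (SE, adjusted p = 4.81e-15), a call. In isoform 2 it was -0.77, and SLC43A3 was lower by adjusted p alone in 6 lines. SLC43A2, a carrier of large neutral amino acids, moved the other way by small amounts and was higher by adjusted p alone in 7 lines, at most 0.31. SLC43A1 ranged from 1.89 to 3.39 TPM. SLC36A1, a proton-coupled carrier of lysosomes, was lower by adjusted p alone in 5 lines, with -0.43 ± 0.08 (SE) in isoform 1, and SLC36A4 ranged from 26.7 to 38.8 TPM.

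**Figure D4:**
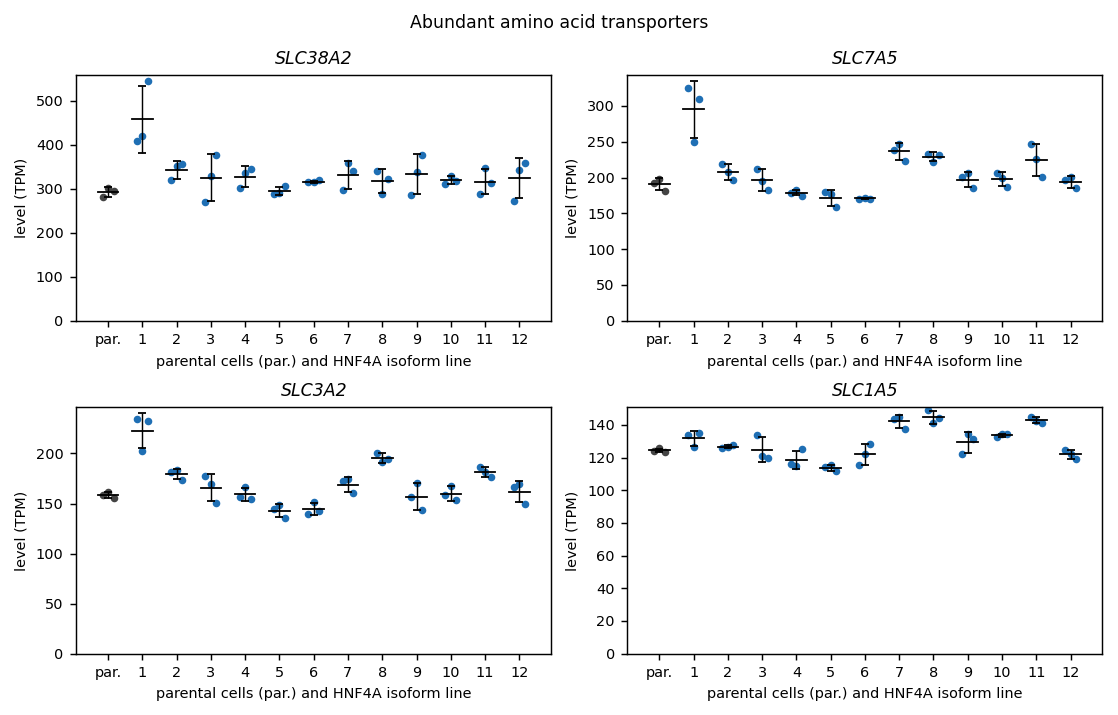
Level in TPM of SLC38A2, SLC7A5, SLC3A2 and SLC1A5 by library (points), with the group mean (bar) and SD (whiskers), for the parental cells and the 12 isoform lines. Isoform 1 has the highest mean of SLC38A2 (458.0 TPM), SLC7A5 (295.1 TPM) and SLC3A2 (223.0 TPM), while SLC1A5 stays between 113.7 and 144.8 TPM.

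Summed over all 85 members, the isoform 1 line had 1847.1 TPM ± 129.7 and the parental cells 1487.1 TPM ± 28.9 (SD, n = 3), and the means of the other 11 lines were between 1469.3 and 1572.0 TPM. In isoform 1 the 5 members over 100 TPM made up 66.1% ± 1.77 of that sum. By adjusted p alone, 15 members were higher and 16 lower in isoform 1 (19.8% of all tested genes were higher and 38.7% lower, 58.5% in all). After rescaling by median-of-ratios size factors 16 were higher and 10 lower (29.9% and 28.1% of all tested genes). In isoform 2 the counts were 9 higher and 20 lower (19.7% and 35.6% of all tested genes, 55.3% in all), and 15 higher and 19 lower after rescaling (28.3% and 26.8%). Over all tested genes of isoform 1 the rescaling took the median from -0.107 to -0.007. Over the 12 lines, 12 members were only higher by adjusted p alone, 15 only lower, 13 higher in some and lower in others, and 4 passed in none. Of all tested genes 25.6% were only higher, 40.7% only lower, 13.7% both and 20.0% passed in none.

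Which part of the HNF4A protein went with these differences was asked in 2 ways. By the standard isoform nomenclature, isoforms 1 to 6 come from promoter P1 and isoforms 7 to 12 from P2. Isoforms 4 to 6 carry an extra exon near the N-terminus, isoforms 2, 5, 8 and 11 an insertion of 10 residues in the C-terminal part, and isoforms 3, 6, 9 and 12 a shortened C-terminus. The first way took the 12 line means as units, with the N-terminal and the C-terminal form as terms in limma.

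SLC1A7 and SLC7A7 differed between the N-terminal forms. Both had passed the limit of 1 TPM only through lines in which they were higher, isoforms 1 and 2 among them. Their entry into the test was therefore not independent of contrasts with isoforms 1 to 3, nor of isoforms 3 minus 1 below. Isoforms 4 to 6 had less of both than isoforms 1 to 3, by -2.78 ± 0.26 for SLC1A7 (log2 difference ± SE, adjusted p = 0.000358) and -2.06 ± 0.32 for SLC7A7 (adjusted p = 0.00289), where 1.95% of all tested genes were called. Isoforms 7 to 9 also had less than isoforms 1 to 3, by -2.10 ± 0.26 for SLC1A7 (adjusted p = 0.0043) and -1.71 ± 0.32 for SLC7A7 (adjusted p = 0.0157), where 0.52% of all tested genes were called. Isoforms 4 to 6 had more SLC1A3 (1.10 ± 0.30, adjusted p = 0.039) and more SLC7A8 (1.10 ± 0.25, adjusted p = 0.0216) than isoforms 7 to 9, where 1.3% of all tested genes were called. With no limit on low values, 39252 genes were tested and 3 of these calls missed the adjusted p: SLC7A7 in isoforms 7 to 9 (0.0704), SLC1A3 (0.121) and SLC7A8 (0.0754).

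The other 3 class contrasts called no member. Between isoforms 10 to 12 and 7 to 9, 2 of the 44 members had an unadjusted limma p under 0.05, as did 7.55% of all tested genes, of which none was called (0.0%). For the insertion, 0 members and 3.03% of all tested genes had an unadjusted limma p under 0.05, and again none of all tested genes was called (0.0%). For the short C-terminus 0.00667% of all tested genes were called, and 8 members had an unadjusted limma p under 0.05, as did 18.2% of all tested genes. The largest of these differences were -0.87 ± 0.19 for SLC1A7 (SE, adjusted p = 0.111) and -0.71 ± 0.17 for SLC2A1 (SE, adjusted p = 0.121).

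The second way, added after the class results were seen, compared single lines that differ by 1 of these features, in the fit of all 39 libraries. It shows differences between 2 lines each. Between isoform 3 and isoform 1, which differ at the C-terminus, 4 members were lower in isoform 3 (1.45% of all tested genes were called in either direction). They were SLC7A7 (-1.90 ± 0.13, adjusted p = 6.82e-13), SLC1A7 (-1.65 ± 0.12), SLC2A1 (-1.19 ± 0.08) and SLC38A3 (-1.10 ± 0.11, log2 difference ± SE). Without replicate 1 of isoform 3 these values were -1.76, -1.44, -1.25 and -1.11, and without replicate 1 of isoform 1 SLC38A3 was at -0.97 and missed the fold.

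Between isoform 12 and isoform 10, SLC1A7 was lower by -1.34 ± 0.12 (SE, adjusted p = 7.76e-10), the only call among members there (0.533% of all tested genes). SLC2A1 was lower in isoform 12 than in isoform 10 by -0.90 ± 0.08 (SE) and in isoform 9 than in isoform 7 by -0.89 ± 0.08 (SE), neither called. In the isoform 6 and isoform 4 pair SLC2A1 differed by 0.20 ± 0.08 (SE, adjusted p = 0.13). SLC1A7 was lower in isoform 9 than in isoform 7 by -0.91 ± 0.12 (SE, adjusted p = 1.28e-06), just under the fold needed for a call. These libraries had 0.227, 0.117 and 0.111 TPM against 1.49, 1.09 and 0.958 TPM, where the scale understates the change. Between isoforms 6 and 4 SLC1A7 differed by -0.10 ± 0.12 (SE, adjusted p = 0.697). At a pseudocount of 1 no member was called between isoforms 6 and 4 (0.493% of all tested genes) or between isoforms 9 and 7 (0.42%).

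The 4 pairs that differ by the insertion called no member either, between isoforms 2 and 1 (0.347% of all tested genes), 5 and 4 (0.353%), 8 and 7 (0.227%) and 11 and 10 (0.2%). By adjusted p alone, 14 members were lower and 1 higher in isoform 2 than in isoform 1 (6.97% of all tested genes were lower and 10.5% higher). Among the lower were SLC7A5 (-0.50 ± 0.07), SLC3A2 (-0.31 ± 0.06), SLC38A2 (-0.41 ± 0.11) and SLC38A3 (-0.67 ± 0.11, log2 difference ± SE). SLC7A8 was lower in isoform 2 than in isoform 1 (-0.47) and in 11 than in 10 (-0.39), and higher in 8 than in 7 (0.59), with an SE of 0.07.

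**Figure D5:**
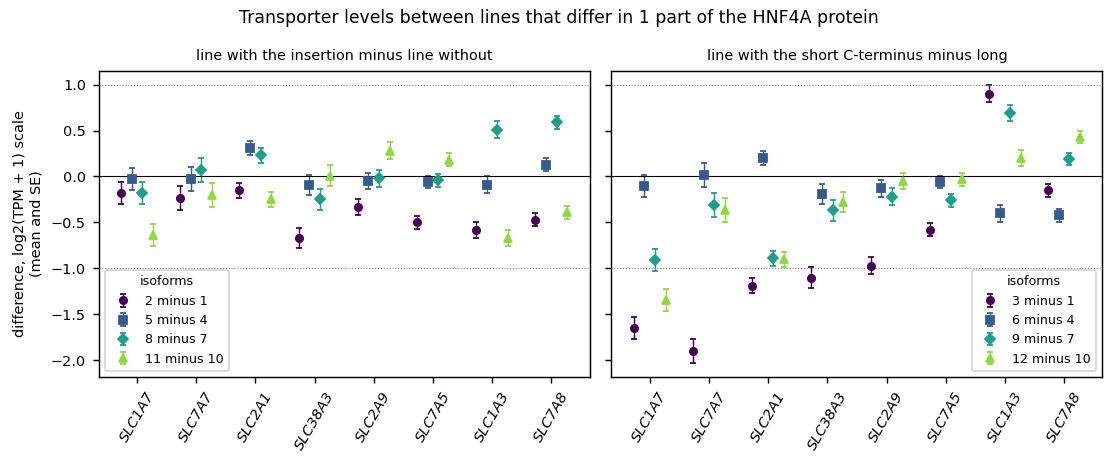
Log2 difference (point) and SE (whisker) on the log2(TPM + 1) scale between pairs of lines that differ by the insertion (left) or by the short C-terminus (right), for 8 members, with dotted lines at -1 and 1. On the left no point passes a dotted line, and on the right SLC7A7, SLC1A7, SLC2A1 and SLC38A3 are below -1 for isoforms 3 minus 1, as is SLC1A7 for isoforms 12 minus 10.

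Genes that act with the transporters were read from 3 further lists. Of the amino acid response list, genes driven by ATF4 and its partners, 17 were tested and in isoform 1 the list had 2 called higher and 1 lower (4.52% of all tested genes were called). By adjusted p alone 11 of the 17 were higher there and 2 lower (19.8% and 38.7% of all tested genes). CHAC1, which breaks down glutathione, rose by 2.44 ± 0.24 (SE) in isoform 1, and ATF3, a stress-induced transcription factor, by 1.33 ± 0.11. PHGDH, the entry enzyme of serine synthesis, fell by 1.13 on the log2 scale. The list's median log2 fold change was 0.27 in isoform 1 and -0.04 in isoform 2, and none of it was called in the other 11 lines. In isoform 2, 2 of the 17 were higher and 7 lower by adjusted p alone (19.7% and 35.6% of all tested genes). In isoform 7 the counts were 3 and 6 (13.4% and 26.2% of all tested genes), and neither was exceeded in the remaining lines. Of the hexose and glutamine enzymes, 12 were tested and only HKDC1, a hexokinase-like enzyme, was called, higher in 9 lines (0.573% to 4.52% of all tested genes). Parental cells had 0.0773 TPM of HKDC1, and with isoform 1 it rose by 4.36 ± 0.13 on the log2 scale (SE). The last list was amino acid sensing by mTORC1, the growth kinase complex that reads lysosomal amino acids. None of its 22 genes was called in any of the 12 lines (0.247% to 4.52% of all tested genes). By adjusted p alone 7 were higher and 5 lower in isoform 1 (19.8% and 38.7% of all tested genes). In isoform 8 the counts were 7 higher and 1 lower (16.9% and 17.5% of all tested genes).

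The authors' deposited tables give their own test of each line against the parental cells, on their normalised counts. In the authors' deposited tables all 15 calls had the same direction and an adjusted p under 0.05, and 14 of them also passed a log2 fold change of 1 in size. Those tables hold 34 pairs of a member and a line that pass both, 11 in isoform 1 and 10 in isoform 2. All members were counted there, tested here or not, and the share of all genes that pass both is not reported here. The 34 pairs include low members that were not tested here: SLC3A1, SLC5A1, SLC6A4, SLC6A13 and SLC2A14. In the authors' deposited table for isoform 1, SLC5A1 rose by 2.53 ± 0.31 (SE) on the log2 scale and SLC3A1 by 2.77 ± 0.33, at levels of 0.477 and 0.991 TPM in that line. For SLC1A7 in isoform 1 the authors' deposited table gave 6.62 ± 0.27 (SE). The authors' values come from their own test and not from log2(TPM + 1), so their sizes cannot be set beside those above.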

How the data were processed

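RNA-seq libraries of 13 groups with 3 libraries each were read from 13 deposited tables. TPM values were made by the authors. Per the submitters' processing notes the tools named were Trimmomatic 0.36, FastQC 0.11.5, kallisto 0.44.0 and DESeq2 1.22.2, with genome build GRCh38.p12; the sources used here do not give their roles or order. Per the labels' protocols, RNA was poly(A) enriched and the kit kept the strand. The tables also hold, per the file headers, the authors' comparison of each line with the parental cells: a mean normalised count (a signal), a log2 fold change and its SE, a test statistic (a score) and p-values, none of which entered a fit. The mean normalised counts the authors deposited sum to between 50609338 and 56136330 per table, the only measure of depth, so no counting interval could be given.

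Each table has 45446 rows. The 12 HNF4A rows were summed, which left 45435. For isoforms 4 and 5, 29 row names differed, none of them a member. Columns of isoforms 4 and 5 carry no replicate number, because their labels repeat 1 name.

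limma 3.58.1 (R 4.3.3; lmFit, then eBayes with trend) was run on log2(TPM + 1), over all 39 libraries, with 26 residual degrees of freedom and Benjamini-Hochberg adjustment within a comparison over the 15003 genes whose mean reached 1 TPM. Class contrasts used 12 line means. The fits were tested on simulated data. Alternatives were a pseudocount of 0.1, a limit of 5 TPM, no limit, median-of-ratios scaling, no minimum fold, 6 libraries per comparison, a replicate block, and leaving out each library. For the class contrasts 1 replicate number was instead left out of all numbered lines at once.

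Members and lists were chosen with earlier results of these data known, and the pairs of lines were added after seeing the data. Library values are given for members called in at least 3 lines and those with the largest rise and fall, and for others singled out after their values were seen. Called members, the highest member of each family, and up to 2 genes of each further list (3 where tied) are named, and the remaining members by range or count, with 1 low member not reported here by name. Gene positions come from GENCODE 29.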

Additional observations from a re-analysis of the deposited data

Results flagged for a closer look

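Differences between isoform classes or between single lines that passed the limma test are listed here with their values on the log2(TPM + 1) scale. SLC1A7 differed by -2.78 and SLC7A7 by -2.06 between isoforms 4 to 6 and isoforms 1 to 3. Between isoforms 7 to 9 and isoforms 1 to 3 SLC1A7 differed by -2.10 and SLC7A7 by -1.71. Both genes had passed the limit on low values only through lines in which they were higher. Isoforms 4 to 6 had more SLC1A3 and SLC7A8 than isoforms 7 to 9, by 1.10 each. Isoform 3 had less than isoform 1 of SLC7A7 (-1.90), SLC1A7 (-1.65), SLC2A1 (-1.19) and SLC38A3 (-1.10). Isoform 12 had less SLC1A7 than isoform 10, by -1.34. The isoform 3 line also had the library lowest in HNF4A among the lines, at 406.9 TPM, and HNF4A was at 782.4 TPM ± 21.1 in isoform 1 and 670.7 TPM ± 230.5 in isoform 3 (SD, n = 3). Its part in these differences was not tested, and the 4 values of isoform 3 against isoform 1 were all still called without that library.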

How the results depend on the processing

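Of the 26 differences of single members reported as called, 19 stayed called in every alternative that tested the gene and 0 reversed; the 7 that missed a call in an alternative are named in the report. The number of members called per line moved as follows. With a pseudocount of 0.1 it was 7 for isoform 1, 7 for isoform 2, 2 for isoform 3, 1 for isoform 4, 4 for isoform 7, 2 for isoform 8, 1 for isoform 9, 2 for isoform 10, 3 for isoform 11 and 1 for isoform 12. The same setting called 1 member for isoforms 5 minus 4 and 1 for isoforms 9 minus 7. At a limit of 5 TPM, which drops SLC1A7 and SLC7A7, it was 1 for isoform 1, 2 for isoform 2, 1 for isoform 7, 1 for isoforms 3 minus 1 and 0 for isoforms 3, 10 and 11, isoforms 12 minus 10, and isoforms 4-6 and 7-9 minus 1-3. With no limit it was 7 for isoform 1, where SLC2A14 was added, 1 for isoforms 7-9 minus 1-3 and 0 for isoforms 4-6 minus 7-9. For these 3 settings the shares of all tested genes called are not reported here. With no minimum fold it was 31, 29, 14, 7, 7, 2, 24, 17, 10, 15, 24 and 6 for isoforms 1 to 12. For isoforms 4-6 minus 1-3 it was 16, for isoforms 7-9 minus 1-3 it was 3 and for isoforms 4-6 minus 7-9 it was 6. The shares of all tested genes were between 10.1% (isoform 6) and 58.5% (isoform 1) for the lines. In the same order they were 34.6, 11.6 and 16.9% for the class contrasts. The share of members was lower than that of all tested genes in isoforms 4, 6, 10 and 12. It was about equal in isoform 9 and higher in the remaining lines. Among these contrasts it was higher only for isoforms 4-6 minus 1-3. For the pairs the number was then 15 (2 minus 1), 8 (5 minus 4), 9 (8 minus 7), 11 (11 minus 10), 21 (3 minus 1), 11 (6 minus 4), 11 (9 minus 7) and 7 (12 minus 10). The shares of all tested genes were 17.5, 10.1, 14.5, 13.4, 41.1, 11.8, 15.4 and 17.8%, in the same order. Leaving out 1 library at a time gave 5 to 7 for isoform 1, 3 to 4 for isoform 2, 1 to 2 for isoform 7 and 3 to 5 for isoforms 3 minus 1. The remaining counts of lines and pairs did not move. For the class contrasts 1 replicate number was left out of all numbered lines at once, and their counts did not move. Isoforms 4 and 5 have no numbers and kept all libraries, so leaving out their libraries was not tested there. Rescaling by size factors (0.9335 to 1.065) gave 5 for isoforms 3 minus 1 and left the other counts as they were, and fits of 6 libraries each left those of the 12 lines as they were. By the rule used, replicate numbers were not taken to pair the libraries: in 0 of 10 numbered lines were all 3 correlations of deviations with the parental libraries over 0.1 (-0.047 to 0.187). In 3 of 10 every library correlated best with its own number, so a weak pairing may be present. A fit with the replicate block left the counts of the 10 lines at 6, 4, 1, 0, 2, 0, 0, 1, 1 and 0 for isoforms 1, 2, 3, 6, 7, 8, 9, 10, 11 and 12. The unknown read depth limits what can be said of members near 0 TPM.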
